A study of Rattus norvegicus with 9 samples.

Results

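Cadherins and protocadherins are calcium-dependent adhesion proteins of the cell surface, and 59 of the 22093 genes with a single symbol on rat Clariom D arrays belong to them. Members were all genes whose only symbol in the array's annotation was Cdh followed by a digit, or began with Pcdh, and each gene was represented by its brightest probe set. They comprised 18 classical cadherins (5 of type I and 13 of type II), 12 non-clustered protocadherins, 24 clustered protocadherins (17 beta, 6 gamma and the alpha pseudogene Pcdha13-ps1) and 5 other cadherins. Classes were assigned by symbol, and the probe set name of Pcdha13-ps1 points to chromosome X, not to the cluster on chromosome 18. A gene was tested where its mean log2 signal reached the median of all probe sets, 4.99, which 53 of the 59 members and 15522 genes did. The 6 members below it were Cdh17 and Cdh19 together with Pcdha13-ps1, Pcdhb1, Pcdhb10 and Pcdhb15.

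The series asked which genes change in the brain of healthy male rats after transcranial focal stimulation (TFS), an electrical stimulation through the intact skull. TFS hippocampus (3 arrays) came from bilateral hippocampi of rats stimulated at 300 Hz and 50 mA for 5 min and sampled 4 h later. Sham hippocampus (3 arrays) and sham cortex (3 arrays, bilateral parietotemporal cortex) came from rats handled identically without current. The labels name no strain or age, and no array of stimulated cortex was analysed here. The design therefore allows 2 comparisons, TFS against sham hippocampus and sham hippocampus against sham cortex, which share the sham hippocampal arrays.

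Classical cadherins bind through their outermost repeats, mostly to themselves, and are tied to actin through catenins inside the cell. Type II members are laid out in patchworks over brain regions and layers, where they help neurons choose partners. Non-clustered (delta) protocadherins are single genes with similarly regional expression, and are divided into delta-1 and delta-2 groups by their cytoplasmic motifs. Clustered protocadherins lie side by side as alpha, beta and gamma arrays. Each neuron switches on its own few by choice of promoter, with CTCF and cohesin looping promoters to enhancers, and the resulting combinations let a neuron recognise its own branches.

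Each beta gene has a promoter of its own, so the sequences below show what those promoters share. Among 35 promoter entries of the clustered genes in RefSeq (build GRCr8, 250 bases before to 50 after each start), the most common word of 10 letters was GGTGGCGCTG, found by counting words after the sequences were seen. It occurred on either strand in 15 of 19 beta entries (78.9%) and, of these, in 12 of the 13 that belong to members (92.3%). The same word was found in 0 of 11 classical and 0 of 10 non-clustered promoters, and in 74 of all 33469 promoters (0.221%). The capitals mark the word in the beta members and CGCTGTT in the gamma member Pcdhga5. Shown are the 4 beta genes with this word whose TFS arrays all lay above the sham hippocampal arrays, then 2 whose mean was lower in TFS hippocampus, then Pcdhga5, all on the plus strand.
Pcdhb2, chr18:29279918-29279957: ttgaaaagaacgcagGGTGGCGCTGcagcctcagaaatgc
Pcdhb12, chr18:29413643-29413682: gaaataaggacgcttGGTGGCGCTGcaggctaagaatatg
Pcdhb14, chr18:29431804-29431843: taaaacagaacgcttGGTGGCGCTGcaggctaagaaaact
Pcdhb20, chr18:29485805-29485844: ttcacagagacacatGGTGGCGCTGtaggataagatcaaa
Pcdhb4, chr18:29292206-29292245: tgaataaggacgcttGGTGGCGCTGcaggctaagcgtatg
Pcdhb5, chr18:29302399-29302438: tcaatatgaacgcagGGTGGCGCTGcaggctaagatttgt
Pcdhga5, chr18:29770903-29770942: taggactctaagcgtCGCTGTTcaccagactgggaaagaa

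The word began at position -68 from the annotated start in Pcdhb20 and between -208 and -52 in the 12 members. It contains CGCT, the core of the conserved element known in clustered protocadherin promoters, and CGCT alone stood in 60.9% of all promoters. The 7-letter word CGCTGTT was present in 11 of 15 gamma entries but in 1 of the 4 that belong to members, in 1 of 19 beta entries and 1.98% of all promoters. In the 1 beta entry that held both words they overlapped. The median GC content of the windows was 40.0% in clustered members, 56.3% in classical and 54.8% in non-clustered members, and 51.7% over all promoters. A match describes these letters only.

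The whole window of Pcdhb20, the beta gene with the smallest p after TFS, lies at chr18:29485638-29485937 on the plus strand, with the shared word in capitals.
Pcdhb20: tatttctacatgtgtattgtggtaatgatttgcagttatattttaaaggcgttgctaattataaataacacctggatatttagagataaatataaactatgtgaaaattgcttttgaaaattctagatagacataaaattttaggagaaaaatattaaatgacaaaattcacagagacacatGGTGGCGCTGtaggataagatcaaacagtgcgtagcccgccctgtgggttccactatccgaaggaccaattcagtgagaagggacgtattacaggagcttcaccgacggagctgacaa

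Array medians ran from 4.95 to 5.04 log2. The positive controls exceeded the negative ones by 3.67 to 4.0 log2 on every array. Both sham arrays numbered 1 had the highest medians, 5.04 each, and the smallest excess, 3.67 in cortex and 3.73 in hippocampus. In hippocampus the excess was 3.95 to 4.0 on the TFS arrays, against 3.73, 3.80 and 3.96 on the sham arrays. The part of this spread in the pairing by number and in the TFS differences was not tested. The number of arrays, rather than any read depth, limits the precision. Of the markers chosen for tissue, 5 of 7 tested hippocampal genes were higher in sham hippocampus than in sham cortex (Prox1 by 1.89 and Fibcd1 by 1.26 log2) and 4 of 6 cortical genes were lower (Lamp5 by -1.49 and Tbr1 by -1.20), the direction their labels give. A mean above 7.57 was found in 13 of the 59 members and 4466 of the 22093 genes. That level is the 95th percentile of 1153 negative control probe sets and is taken here as background. Of the 59 members, 19 (32.2%) had exactly the same value on 3 or more arrays, against 13255 of all 22093 genes. In bulk tissue, fewer cells of a type and less RNA per cell cannot be told apart.

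Classical cadherins that differed between the brain regions were mostly lower in hippocampus, and non-clustered protocadherins differed in both directions. Between sham hippocampus and sham cortex 18 of the 53 tested members (34.0%) differed at an adjusted p under 0.05 (limma, Benjamini-Hochberg over all 15522 genes), against a background of 12.4% of all tested genes. This fit leaves out the numbers in the array names. With the numbers as a block, as described below, 9 of the 18 passed. Of the 18, 7 were higher in hippocampus (background 5.99%) and 11 lower (background 6.46%). The 18 comprised 8 of 17 classical cadherins, 8 of 12 non-clustered protocadherins, 2 of 20 clustered protocadherins and 0 of 4 other cadherins. In all 18, the sham hippocampal arrays lay wholly on one side of the cortical arrays. The 18 were selected by a test on these same arrays, so their separation largely follows from that selection. Among all 53 tested members, 9 lay wholly above cortex and 17 wholly below it. Over all tested genes 11.4% lay above and 12.7% below, 24.1% in either direction. In all 18 the 3 TFS arrays fell on the same side as the sham hippocampal arrays, read against the same cortical arrays. The share that did so among all regionally called genes was not counted, so this cannot be called particular to the members.

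**Figure D1:**
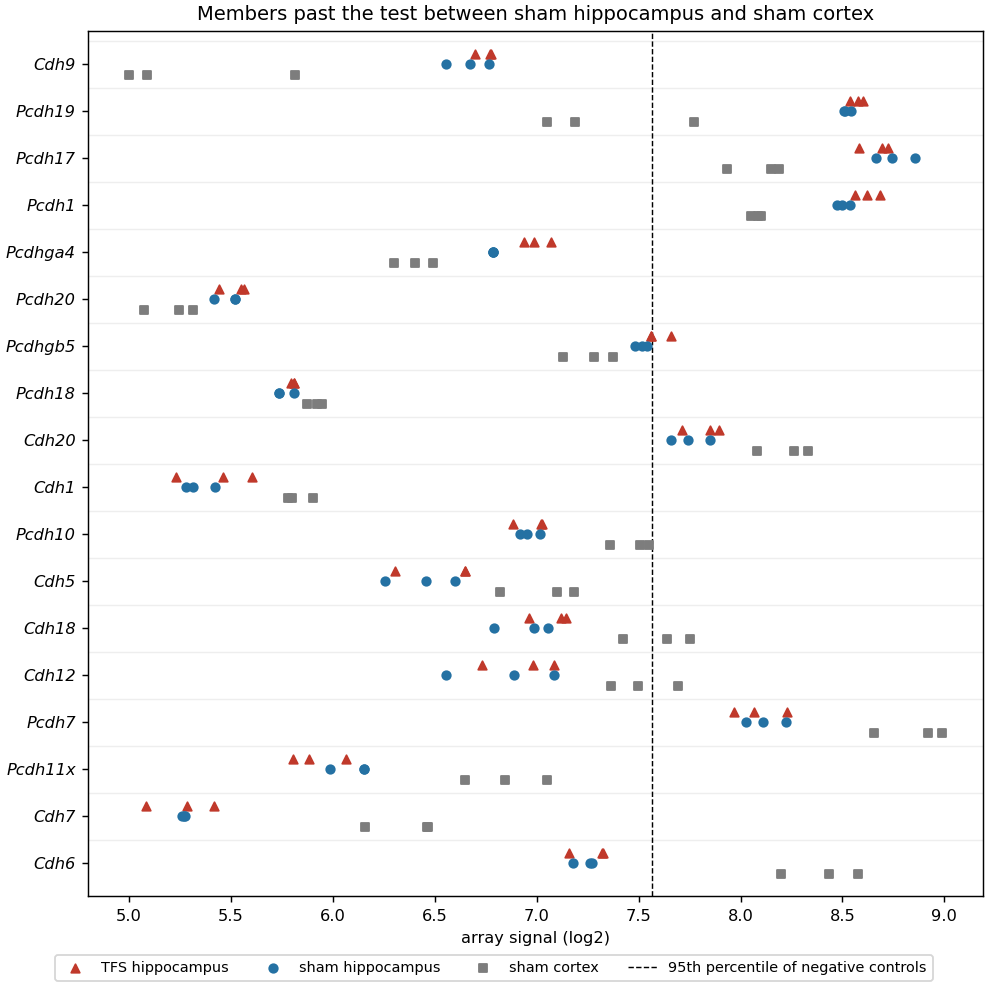
Log2 array signal (x axis) of the 18 members past the test between sham hippocampus and sham cortex, ordered by their difference, with 1 symbol for each of the 3 arrays of TFS hippocampus, sham hippocampus and sham cortex. Both hippocampal groups lie on the same side of cortex for every gene, from Cdh9, higher in sham hippocampus by 1.37, to Cdh6, lower by -1.17; the dashed line is the background at 7.57.

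The labels do not say what the numbers in the array names mark, and the main fit leaves them out. Under the criterion used here they pair the sham arrays of the 2 regions. A fit of the 6 sham arrays alone left 13 of the 18, and the same 6 arrays with the number as a fixed block gave 10 members, 9 of them among the 18 and Cdh8 in addition (adjusted p = 0.0493). With the number as a random block over all 9 arrays 19 passed, including all 18. The adjusted p of the 6-array fit with the block is given below as the blocked value where it is 0.05 or more. Of those members, Cdh12 (adjusted p = 0.0742), Pcdhgb5 (0.0966), Pcdh18 (0.0557) and Pcdh20 (0.0919) had already lost the call in the 6-array fit without a block, as had Cdh5 (0.0620). Leaving out both sham arrays numbered 1 also left 10 members, all among the 18, and 13 of the 18 passed whichever single array was left out. The share of all tested genes that passed was not counted for these alternative fits. Whether the members exceed that share in them is therefore not known.

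Type II classical cadherins held 7 of the 8 classical calls, and all but Cdh9 were lower in hippocampus. Several marker lists were lower in the same comparison. All 6 tested interneuron markers were below 0 and 3 passed (Vip -1.02, Sst -0.64 and Pvalb -0.62 log2), at a median of -0.41 log2. Of 6 tested cortical projection neuron markers 4 passed, all 6 were below 0, and the median was -0.76 log2. Endothelial, meningeal and pericyte markers were also all below 0, whereas hippocampal neuron, choroid plexus and oligodendrocyte markers were all above 0. The interneuron list mean ran from 7.89 to 8.03 in sham hippocampus and from 8.35 to 8.47 in sham cortex. The part of any of these lists in the cadherin results was not tested. Cdh9, which in mice acts at synapses between dentate granule cells and CA3 neurons, was the exception, at levels below background on every array. It measured 6.78, 6.70 and 6.77 in TFS hippocampus, 6.55, 6.67 and 6.77 in sham hippocampus, and 5.09, 5.81 and 5.00 in sham cortex. Both hippocampal groups lay clear of the cortical arrays, of which array 2 was the highest. The difference between sham hippocampus and cortex was 1.37 log2 (95% CI 0.91 to 1.82, adjusted p = 0.00394). Its blocked adjusted p was 0.0612, and below background the size of the difference is uncertain.

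Cdh6, which in mice marks particular cortical areas and retinal neurons, was lower in hippocampus by the widest margin. It measured 7.32, 7.16 and 7.32 in TFS hippocampus, 7.18, 7.27 and 7.26 in sham hippocampus, and 8.58, 8.20 and 8.43 in sham cortex. Every hippocampal array was below background and every cortical array above it. The difference was -1.17 log2 (95% CI -1.39 to -0.95, adjusted p = 0.000358). The cortical mean was 1.79-fold above the background level. Cdh7, another type II cadherin, had the same direction. Its values were 5.42, 5.08 and 5.28 in TFS hippocampus, 5.27, 5.26 and 5.27 in sham hippocampus, and 6.47, 6.16 and 6.46 in sham cortex, all below background. The difference was -1.09 log2 (95% CI -1.34 to -0.85, adjusted p = 0.000625), and for both Cdh6 and Cdh7 it passed under every alternative run.

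Cdh18, Cdh12 and Cdh20, type II cadherins found mainly in the nervous system, were also lower in hippocampus. Cdh18 measured 7.12, 6.96 and 7.14 in TFS hippocampus, 6.79, 7.06 and 6.98 in sham hippocampus, and 7.43, 7.64 and 7.75 in sham cortex. Its difference was -0.66 log2 (95% CI -0.90 to -0.43, adjusted p = 0.00521), with 2 cortical arrays above background and none of hippocampus. The cortical mean was only 1.03-fold above the background level. Cdh20 was above background on every array. It measured 7.89, 7.71 and 7.85 in TFS hippocampus, 7.66, 7.85 and 7.74 in sham hippocampus, and 8.26, 8.33 and 8.08 in sham cortex, a difference of -0.47 log2 (adjusted p = 0.00790, blocked 0.0502). Cdh12 had a less firm call, and only 1 cortical array and no hippocampal array was above background. It measured 7.09, 6.73 and 6.98 in TFS hippocampus, 6.56, 7.09 and 6.89 in sham hippocampus, and 7.69, 7.50 and 7.37 in sham cortex. The difference of -0.68 log2 had an adjusted p of 0.0276 (blocked 0.144), and the call was lost without cortical array 1 or 2, sham hippocampal array 1 or 3, or TFS array 3 (adjusted p 0.0513 to 0.0943).

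Cdh5 (VE-cadherin, the junction protein of blood vessel endothelium) and Cdh1 (E-cadherin, of epithelia) were lower in hippocampus as well. Cdh5 measured 6.65, 6.65 and 6.30 in TFS hippocampus, 6.26, 6.60 and 6.46 in sham hippocampus, and 6.82, 7.10 and 7.18 in sham cortex. Its difference was -0.59 log2 (adjusted p = 0.0300), and it was not called without cortical array 2 or 3 or sham hippocampal array 1 or 3 (adjusted p 0.0755 to 0.0881). Cdh5 was below background on every array. All 6 tested endothelial markers were below 0 in the same comparison, and 1 passed (Cldn5, -0.19 log2). The mean level of the 7 measured endothelial markers ran from 6.34 to 6.51 in sham hippocampus and from 6.66 to 6.71 in sham cortex. These list means were below background. Their part in the Cdh5 result was not tested.

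Cdh1 had 5.46, 5.60 and 5.23 in TFS hippocampus, 5.42, 5.31 and 5.28 in sham hippocampus, and 5.80, 5.78 and 5.90 in sham cortex, all below background. The difference was -0.49 log2 (adjusted p = 0.0128), and it was not called without sham hippocampal array 2 or without array 3 (adjusted p = 0.0519 and 0.0521). The 7 tested markers of meninges and fibroblasts were all below 0 too, and 1 passed (Col1a2, -0.84 log2). The mean of all 8 such markers ran from 6.34 to 6.53 in sham hippocampus and from 6.80 to 7.46 in sham cortex, below background in both regions. Choroid plexus markers, from an epithelium inside the brain, ran the opposite way: all 6 tested were above 0, 1 passed (Ttr, 3.30 log2), and the mean of the 7 measured ran from 6.23 to 7.02 in sham hippocampus and from 5.43 to 5.49 in sham cortex. The part of either list in the Cdh1 result was not tested.

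The other classical members did not pass. Cdh2 (N-cadherin, the synaptic cadherin of most neurons) measured 8.97, 8.96 and 8.85 in TFS hippocampus, 8.83, 8.94 and 8.85 in sham hippocampus, and 8.64, 8.85 and 8.72 in sham cortex. Sham hippocampus and cortex overlapped, at a difference of 0.14 log2 (95% CI -0.00033 to 0.28, adjusted p = 0.196, and 0.0499 without cortical array 2). Cdh11, known from bone and mesenchyme and also expressed in brain, differed by 0.25 log2 with overlapping groups (adjusted p = 0.0936, and 0.00329 without cortical array 3). The median difference over the 17 tested classical cadherins was -0.19 log2, against -0.0044 over all tested genes. Relative to the cortical mean, the class median of the single sham hippocampal arrays ran from -0.24 to -0.19.

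**Figure D2:**
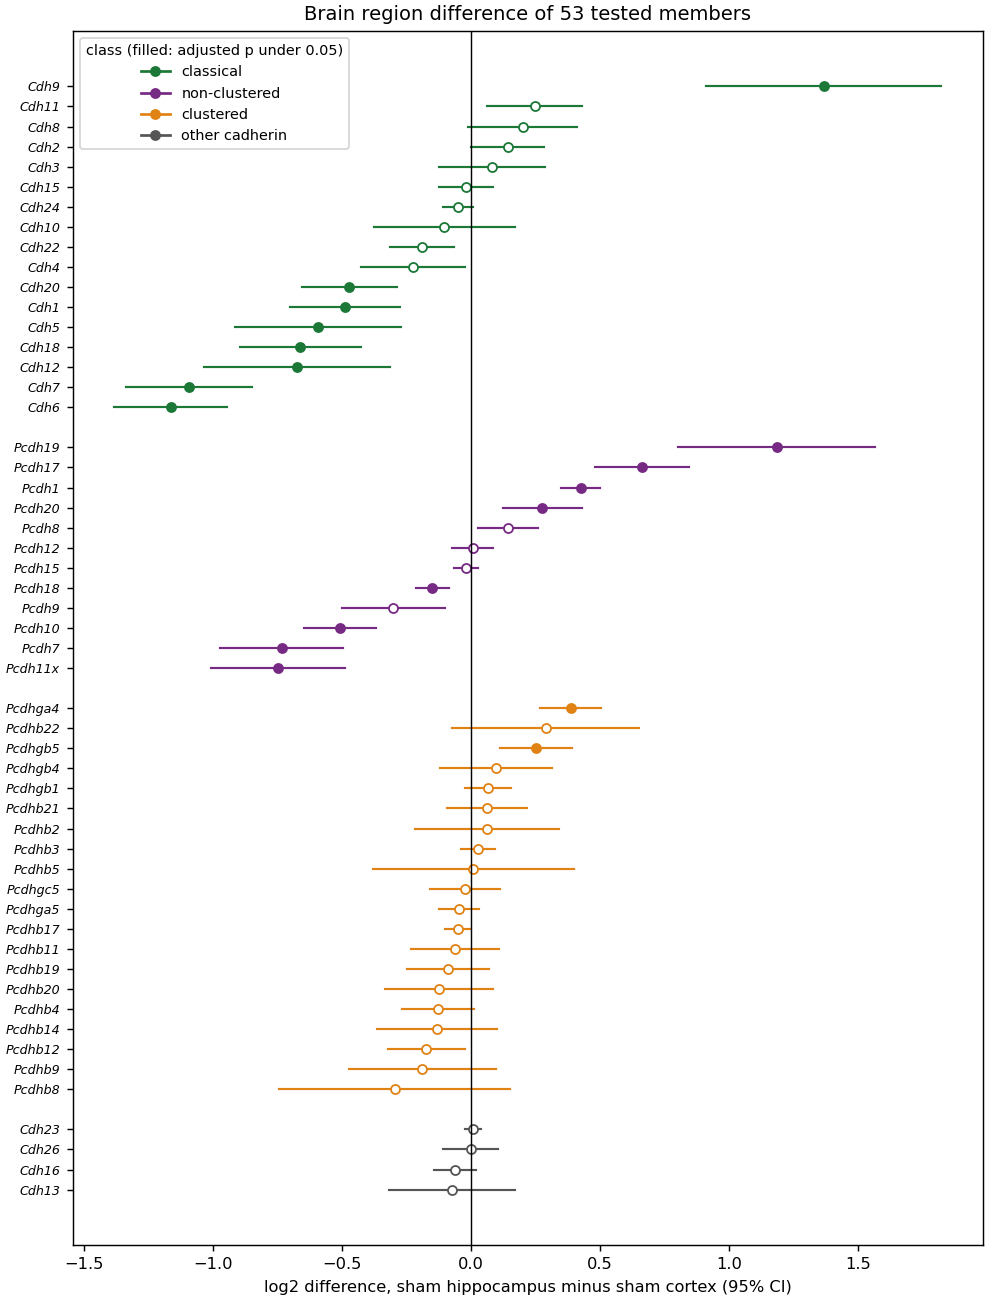
Log2 difference (x axis, sham hippocampus minus sham cortex, 3 arrays each) with its 95% confidence interval for the 53 tested members, grouped by class. Filled points have an adjusted p under 0.05 in the fit without a block. Classical cadherins lean below 0 with a median of -0.19, non-clustered protocadherins spread to both sides from -0.75 to 1.18, and clustered protocadherins lie between -0.30 and 0.39.

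Of the 12 non-clustered protocadherins 8 differed between the regions, in both directions, 4 higher and 4 lower in hippocampus. Their median difference was -0.0079 log2, while the median size regardless of sign was 0.36 log2, against 0.053 log2 over all tested genes. In the delta-1 group 3 of 4 genes passed and in the delta-2 group 4 of 5.

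Pcdh19, the delta-2 gene mutated in a human epilepsy of females, was the most different of the class. It measured 8.60, 8.57 and 8.54 in TFS hippocampus, 8.51, 8.51 and 8.54 in sham hippocampus, and 7.05, 7.77 and 7.19 in sham cortex. The hippocampal arrays lay close together, whereas in cortex only array 2 was above background. The difference was 1.18 log2 (95% CI 0.80 to 1.57, adjusted p = 0.00338, blocked 0.0600). Pcdh17, a delta-2 protocadherin that in mice sits at synapses between cortex and basal ganglia, was above background throughout. It measured 8.72, 8.58 and 8.69 in TFS hippocampus, 8.74, 8.85 and 8.66 in sham hippocampus, and 7.94, 8.19 and 8.15 in sham cortex. Sham hippocampus was 1.58-fold higher than cortex (0.66 log2, 95% CI 0.48 to 0.85, adjusted p = 0.00168).

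Pcdh1 and Pcdh7 are both delta-1 genes and moved in opposite directions. Pcdh1 had 8.62, 8.68 and 8.56 in TFS hippocampus, 8.50, 8.54 and 8.47 in sham hippocampus, and 8.05, 8.08 and 8.10 in sham cortex. The 3 groups did not overlap, and sham hippocampus was 1.34-fold higher than cortex (0.42 log2, adjusted p = 0.000312), the smallest p among the members. Pcdh7 measured 8.23, 7.97 and 8.07 in TFS hippocampus, 8.11, 8.22 and 8.03 in sham hippocampus, and 8.99, 8.92 and 8.66 in sham cortex. Both hippocampal groups were below every cortical array (-0.74 log2, 95% CI -0.97 to -0.50, adjusted p = 0.00344). A dimmer Pcdh7 probe set, at 3.99 in sham hippocampus and 4.20 in sham cortex, was below the level needed for the test.

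Pcdh11x, the X-linked delta-1 gene, was lower in hippocampus. It measured 6.07, 5.88 and 5.81 in TFS hippocampus, 6.15, 6.15 and 5.99 in sham hippocampus, and 6.84, 6.65 and 7.05 in sham cortex, all below background (-0.75 log2, adjusted p = 0.00450, blocked 0.0757). Pcdh10, a delta-2 gene needed in mice for axon growth through the forebrain, showed the same order of regions. It measured 7.03, 6.89 and 7.02 in TFS hippocampus, 6.95, 7.02 and 6.92 in sham hippocampus, and 7.50, 7.36 and 7.55 in sham cortex, all below background (-0.51 log2, adjusted p = 0.00161, blocked 0.0531). Pcdh9, the remaining delta-1 gene, differed by -0.30 log2 and did not pass (adjusted p = 0.0631).

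The last calls of the class were small. Pcdh20 measured 5.44, 5.56 and 5.55 in TFS hippocampus, 5.42, 5.52 and 5.52 in sham hippocampus, and 5.24, 5.07 and 5.31 in sham cortex (0.28 log2, adjusted p = 0.0336, blocked 0.128). It was below background on every array, and was not called without cortical array 1, sham hippocampal array 2 or 3, or TFS array 2 or 3 (adjusted p 0.0561 to 0.114). Pcdh18, a delta-2 gene, measured 5.81, 5.81 and 5.79 in TFS hippocampus, 5.74, 5.73 and 5.81 in sham hippocampus, and 5.92, 5.94 and 5.87 in sham cortex. The regions were separated by -0.15 log2 (adjusted p = 0.0117, blocked 0.138) at levels far below background, and 3 of the 9 arrays shared 1 value. Pcdh12 and Pcdh15, with 1 value on 6 and 7 arrays, showed almost no spread to test.

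Among clustered protocadherins 2 of 20 passed between the regions, a share near the 12.4% of all tested genes. Both were gamma genes and higher in hippocampus, and 0 of 14 beta genes passed. At an unadjusted p under 0.05, 1 beta gene was lower (Pcdhb12, -0.17 log2, adjusted p = 0.135), and the background at that threshold was 25.6%. Of the 20, 9 had a higher mean in hippocampus, against 46.6% of all tested genes. The class median was -0.036 log2, and the 95% intervals of 18 of the 20 excluded a 1.5-fold difference, as for 94.2% of all tested genes. These intervals describe array signal, and only 1 of the 24 clustered members had a mean above background. Cortical array 1 stood somewhat apart, with 16 of the 20 above the cortical mean, against 5 on array 2 and 6 on array 3.

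Pcdhga4, of the gamma A subfamily, measured 6.94, 7.07 and 6.99 in TFS hippocampus, 6.78 on all 3 arrays of sham hippocampus, and 6.49, 6.40 and 6.30 in sham cortex. The 3 groups were fully separated, and the difference between the regions was 0.39 log2 (95% CI 0.27 to 0.50, adjusted p = 0.00258). The sham hippocampal arrays held 1 identical value, which leaves this group without any spread, and all 9 values were below background. Pcdhgb5, of the gamma B subfamily, measured 7.56, 7.66 and 7.56 in TFS hippocampus, 7.54, 7.48 and 7.52 in sham hippocampus, and 7.13, 7.38 and 7.28 in sham cortex. Its difference of 0.25 log2 (adjusted p = 0.0346, blocked 0.155) was lost without cortical array 3, any sham hippocampal array, or TFS array 1 or 3 (adjusted p 0.0591 to 0.105). Only 1 TFS array and no sham array of Pcdhgb5 was above background. Pcdhgc5, a C-type gamma gene whose protein has been found at inhibitory synapses of rat neurons, was above background on every array and overlapped between regions (-0.024 log2).

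A probe set annotated to 7 alpha genes, which no single symbol covers, gave a further view of the cluster. It averaged 6.09 ± 0.016 in TFS hippocampus, 6.05 ± 0.014 in sham hippocampus and 6.20 ± 0.038 in sham cortex (SD, n = 3 each). In a fit over every probe set it was lower in sham hippocampus than in cortex by -0.16 log2 (limma adjusted p = 0.0144).

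The remaining cadherins gave no regional call. Cdh13 (T-cadherin, held in the membrane by a lipid anchor) measured 9.33, 9.35 and 9.43 in TFS hippocampus, 9.33, 9.29 and 9.20 in sham hippocampus, and 9.22, 9.62 and 9.21 in sham cortex, with overlapping groups. Cdh23, part of the tip links of hair cells, was below background and had 1 value on 8 of the 9 arrays. Cdh16, the kidney cadherin, was also below background and differed by -0.06 log2, and Cdh26 overlapped between regions.

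Some genes that work with cadherins, in lists drawn up by function, also differed between the regions. All shares below stand beside the 12.4% of all tested genes. Of 14 catenins and junction adaptors 3 passed (21.4%). Ctnnd2 (delta-catenin, of dendritic spines) was lower in sham hippocampus by -0.21 log2 and Magi1, a junction scaffold, by -0.44 log2. Pkp4, a relative of the p120 catenin, was higher by 0.34 log2. Of 14 tested genes of the wider cadherin superfamily 6 passed (42.9%), 5 of them higher. Fat4, a giant atypical cadherin of planar polarity, was higher by 1.42 log2, and Clstn2, a synaptic calsyntenin, by 0.79 log2, whereas its relative Clstn1 was lower by -0.46 log2.

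Among 12 tested regulators of the clustered locus 1 passed (8.33%): the DNA methyltransferase Dnmt3a was lower in sham hippocampus by -0.15 log2, and Ctcf differed by -0.014 log2 without passing. Of 20 proteases, kinases and related effectors that act on cadherins 4 passed. The kinase Ptk2b was higher by 0.67 log2, the phosphatase Ptpru by 0.44 log2 and the actin regulator Cyfip1 by 0.48 log2, while Cyfip2 was lower by -0.27 log2.

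TFS moved no member past the threshold 4 h later. Between TFS and sham hippocampus 0 of 53 members and 0 of 15522 genes (0.0%) had an adjusted p under 0.05 in limma. At an unadjusted p under 0.05 there were 5 members, all higher in TFS hippocampus, against a background of 5.19% of genes (4.37% higher and 0.812% lower). The 95% intervals of 52 of the 53 members excluded a 1.5-fold change in array signal and those of 28 a 1.2-fold change, against 99.2% and 87.5% of all tested genes. Only 13 of the 59 members had a mean above background, and 19 had the same value on 3 or more arrays. Below background the size of a difference is uncertain, so a narrow interval there does not exclude such a change in expression.

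Most clustered protocadherins had a slightly higher mean in TFS than in sham hippocampus, none past the test. Of 20 tested, 17 had a higher mean in TFS than in sham hippocampus (85.0%, against 61.3% of all tested genes), with a median of 0.099 log2 against 0.011 over all genes. For 12 of the 17 classical cadherins the mean was higher, with a median of 0.031 log2, and for 6 of 12 non-clustered protocadherins, with a median of 0.0083 log2. In 7 clustered genes all TFS arrays exceeded all sham arrays, against a background of 8.57% (9.77% in either direction). Relative to the sham mean, the class median was 0.099, 0.087 and 0.11 on the 3 TFS arrays and 0.0033, -0.0088 and 0.016 on the 3 sham arrays. These genes lie together and their probe sets can share sequence, so they are not independent of one another, and the class was given no test.

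**Figure D3:**
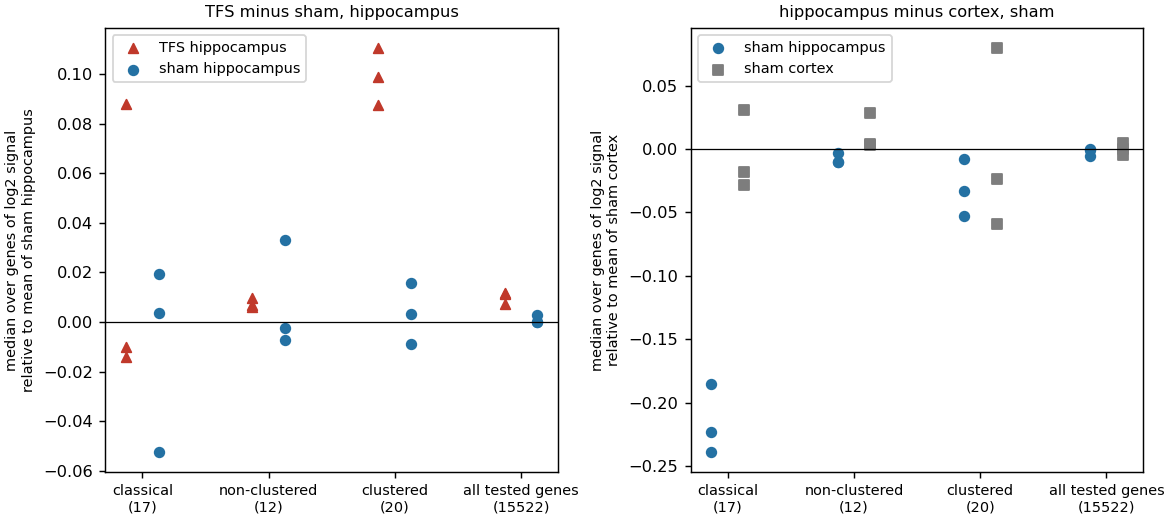
Median over the genes of a class of the log2 signal of each array, relative to the mean of the reference arrays (y axes; left, TFS and sham hippocampus; right, sham hippocampus and sham cortex), for 17 classical, 12 non-clustered and 20 clustered members and all 15522 tested genes, with 1 point per array. On the left the clustered class is at 0.087 to 0.11 on the TFS arrays; on the right the classical class is at -0.24 to -0.19 on the sham hippocampal arrays.

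The single clustered genes with the smallest p came from both the beta and the gamma genes. Pcdhb20 measured 6.94, 6.83 and 7.11 in TFS hippocampus, 6.76, 6.51 and 6.56 in sham hippocampus, and 6.79, 6.64 and 6.78 in sham cortex. TFS arrays lay above all other arrays, by 0.35 log2 over sham hippocampus (95% CI 0.14 to 0.56, unadjusted p = 0.00565, adjusted p = 0.770). Pcdhga4, with the values given above, was higher by 0.22 log2 (95% CI 0.10 to 0.33, unadjusted p = 0.00316, adjusted p = 0.690). Its sham arrays are those with 1 identical value, and they also served in the comparison with cortex.

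Pcdhgc5 measured 10.63, 10.73 and 10.66 in TFS hippocampus, 10.62, 10.45 and 10.47 in sham hippocampus, and 10.63, 10.47 and 10.52 in sham cortex. Its TFS arrays exceeded the sham hippocampal ones by 0.16 log2 (unadjusted p = 0.0281, adjusted p = 0.921), although the gap between the nearest arrays was narrow. Pcdhb17 differed by 0.053 log2 (unadjusted p = 0.0447), with TFS and sham arrays that overlapped and 1 value on 4 arrays. The beta differences were given no test against position along the locus. They ran from -0.049 for Pcdhb4 to 0.36 log2 for Pcdhb22. Near one end Pcdhb3 and Pcdhb5 were at 0.018 and -0.022, and at the other end Pcdhb20 and Pcdhb21 were at 0.35 and 0.14. Out of such an order were 0.23 for Pcdhb2 at the first end, and 0.053 for Pcdhb17 and 0.082 for Pcdhb19 beside Pcdhb20.

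Pcdhb22 had the largest difference of the class, on TFS arrays that scattered, at 5.71, 6.07 and 6.36 in TFS hippocampus, 5.71, 5.61 and 5.73 in sham hippocampus, and 5.58, 5.29 and 5.32 in sham cortex. The TFS and sham arrays overlapped (95% CI -0.00062 to 0.73, unadjusted p = 0.0503), and it was the member whose interval did not exclude a 1.5-fold change.

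**Figure D4:**
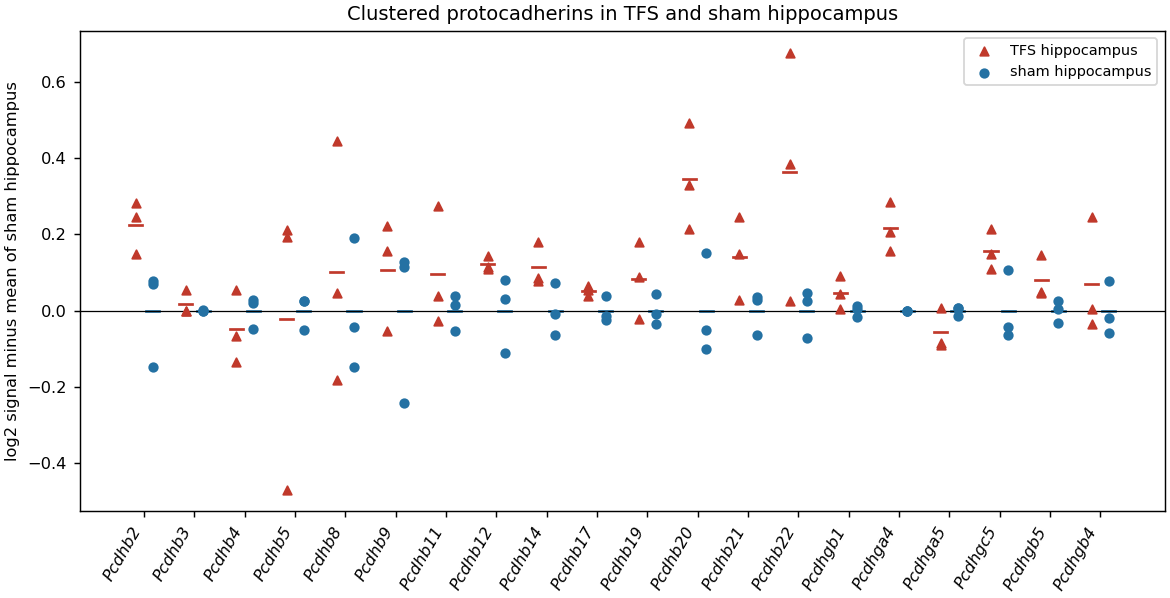
Log2 signal minus the mean of sham hippocampus (y axis) for the 20 tested clustered protocadherins, with 1 point per array and a bar at the group mean; genes run in locus order, with Pcdhgb5 and Pcdhgb4, not placed here, at the right. The means of 17 genes are above 0 in TFS hippocampus, up to 0.35 for Pcdhb20 and 0.36 for Pcdhb22, of which Pcdhb22 overlaps with sham.

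Outside the cluster, Pcdh1 was the only member with an unadjusted p under 0.05. Its TFS arrays, given above, were all higher than its sham hippocampal arrays, by 0.12 log2 (95% CI 0.04 to 0.20, unadjusted p = 0.00763, adjusted p = 0.803). The 4 members with the smallest p among those lower in TFS hippocampus were Cdh24, at -0.06 log2 (unadjusted p = 0.0521), Pcdhga5 at -0.06, Pcdh11x at -0.18 and Pcdh17 at -0.09 log2. In Cdh24 alone of these, TFS and sham arrays did not overlap, at 6.49, 6.53 and 6.47 against 6.57, 6.54 and 6.54.

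For the members with the largest regional differences no TFS difference was detected. The TFS difference was 0.08 log2 for Cdh9 (95% CI -0.37 to 0.54), 0.03 for Cdh6 (-0.19 to 0.25), -0.0045 for Cdh7 (-0.25 to 0.24) and 0.05 for Pcdh19 (-0.33 to 0.43). Pcdh8 (arcadlin), which neuronal activity is known to induce in rat hippocampus, was looked up for that reason after the values were seen. It measured 8.07, 8.13 and 8.03 in TFS hippocampus, 8.06, 8.03 and 8.05 in sham hippocampus, and 7.79, 7.96 and 7.95 in sham cortex. Its TFS and sham arrays overlapped, and the difference was 0.03 log2 (95% CI -0.09 to 0.14, adjusted p = 0.965).

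None of the partner genes passed after TFS, among 14 catenins and adaptors, 14 superfamily genes, 12 locus regulators and 20 proteases and kinases (limma). At an unadjusted p under 0.05 there were 1, 1, 0 and 2 of them. Markers of other cells were also without a call, and the choroid plexus list, with 5 of 6 tested genes not above 0, varied most between arrays: its mean ran from 5.73 to 6.88 in TFS hippocampus and from 6.23 to 7.02 in sham hippocampus. Hippocampal neuron markers were above 0 in 7 of 7, at a list mean of 7.38 to 7.44 in TFS and 7.26 to 7.33 in sham hippocampus. Cortical projection neuron markers were above 0 in 6 of 6 with the same median of 0.092 log2, at a list mean of 7.93 to 8.01 in TFS and 7.86 to 7.88 in sham hippocampus. The part of these lists in the clustered protocadherin values was not tested.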

How the data were processed

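The deposited values were log2 signals per probe set of 9 Clariom D rat arrays, named by the authors for tissue and treatment; RMA and limma are listed in the submitters' processing notes, with no version, and the array annotation's build is not given in the sources used here. Of 70580 probe sets, 1738 were controls, 23446 had 1 gene symbol, 505 several and 44891 none. The brightest of a gene's probe sets was kept. limma 3.58.1 (R 4.3.3) was fitted to 15522 genes over all 9 arrays, with 6 residual degrees of freedom and Benjamini-Hochberg adjustment. The script was tested on simulated data. Whether every array is another rat is not stated in the labels. The p-values then measure only the spread of these samples, which may be technical. An exact permutation test of 3 against 3 arrays cannot go below 0.1.

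Members and lists were chosen with earlier results of these data known. Named were members past the threshold, the 3 brightest per class, the 4 smallest p per direction after TFS, and up to 4 genes per list. Deviations of same-numbered sham hippocampal and cortical arrays correlated at 0.416, 0.202 and 0.252, all over 0.1, which by the criterion used pairs them. Deviations from a group mean sum to 0, so such positive values come partly with negative ones between unlike numbers. TFS and sham hippocampus gave -0.111, -0.287 and -0.025 and were not paired. Promoters came from RefSeq (GRCr8), which held 39 of the 59 members. Alternatives covered the filter, the scaling, the variance model, the block and each array left out.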

Additional observations from a re-analysis of the deposited data

Results flagged for a closer look

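A probe set annotated to 12 gamma genes, left out of all comparisons because it has several symbols, lay above the 7.57 background of the negative controls in every group. It averaged 7.996 ± 0.036 in TFS hippocampus, 7.92 ± 0.0038 in sham hippocampus and 7.82 ± 0.029 in sham cortex (SD, n = 3 each). In a limma fit over every probe set, the difference between sham hippocampus and cortex was 0.096 log2 (adjusted p = 0.105) and that between TFS and sham hippocampus 0.079 log2 (adjusted p = 0.798). The value does not say which of the 12 genes it comes from.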

How the results depend on the processing

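Against 18 members differing between sham hippocampus and cortex, 13 passed in a fit of the 6 sham arrays alone (5 higher, 8 lower), 10 in those 6 arrays with a fixed replicate block (4 higher, 6 lower), 19 with a random replicate block over all 9 arrays (7 higher, 12 lower) and 10 without both sham arrays numbered 1 (5 higher, 5 lower), a setting chosen after seeing the data, as was the fit over every probe set. Leaving out single arrays gave 13 to 18 members, 5 to 8 higher and 8 to 11 lower. The shares of all tested genes that passed under these settings were not counted. The classical median of -0.19 log2 became -0.15 without a filter and ran from -0.24 to -0.12 when 1 array was left out. With the 75th percentile filter the median of other cadherins was -0.075 and that of non-clustered protocadherins 0.14 for hippocampus minus cortex, and that of other cadherins 0.099 for TFS minus sham; fewer genes remain under that filter. The clustered median after TFS, 0.099, was 0.075 with array weights and 0.073 to 0.13 with 1 array left out, lowest without sham hippocampal array 2. No alternative called a member after TFS. The sign of the TFS difference turned under some alternative in members with and without a regional call. In the clustered class these were Pcdhb3, Pcdhb8, Pcdhb9 and Pcdhgb4, above 0 in the main fit, and Pcdhb5, below 0 in it. For hippocampus minus cortex the sign turned under some alternative in 8 members, none with a regional call. They were Cdh15, Pcdhb2, Pcdhb3 and Pcdhb14 and, among those named by rule, Cdh13 (-0.14 to 0.058 with 1 array left out, highest without cortical array 2), Cdh26 (-0.039 to 0.032, highest without sham hippocampal array 2, and 0.0014 with median centring and 0.010 with quantile normalization), Pcdhgc5 (-0.078 to 0.019, above 0 without cortical array 1 or sham hippocampal array 2) and Pcdhb5 (-0.014 to 0.035, below 0 without cortical array 1 or sham hippocampal array 2 or 3). Where no construction is named, the cause was not tested. Most members lie below the negative control background, where differences are least certain.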
